A study of Drosophila melanogaster with 2 samples.

Results

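The mitochondrial ribosomal protein genes of Drosophila melanogaster were taken as the protein-coding genes whose symbol starts with mRpL (large subunit) or mRpS (small subunit) in the Ensembl annotation. They numbered 73 of 13945 protein-coding genes on the 6 main chromosome arms, 47 of the large subunit and 26 of the small subunit. Binding was read from chromatin immunoprecipitation with sequencing (ChIP-seq) of flies of the strain CG42726-GFP, which carry an insertion that fuses the protein of the gene CG42726 to the fluorescent protein eGFP. Chromatin of whole embryos aged 0 to 24 hours was sonicated to a size range of 200 to 800, and fragments bound by the eGFP fusion were recovered with anti-GFP antibody. There was 1 group with 2 biological replicates, and no second genotype, stage or untagged line was analysed here, so no test between groups was possible. A whole embryo mixes every tissue and a full day of stages, so a region seen here cannot be assigned to a cell type.

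Mitochondria carry their own ribosomes, which translate the few membrane proteins of the respiratory chain that mitochondrial DNA encodes. The ribosomal RNAs of these particles come from mitochondrial DNA, while their proteins are encoded in the nucleus, made in the cytosol and imported. In flies, mutants of the mitochondrial ribosomal protein gene tko have impaired respiration and seizures. Genes such as tko and bonsai encode proteins of this ribosome under other symbols and are not counted among the members.

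The strongest regions whose nearest gene start was that of the member itself lay at mRpL4, mRpL3 and mRpL10, leaving aside 1 arm from which no sequence is shown. That arm holds mRpS17 and the tie mRpL53, whose regions were stronger than that of mRpL10. Those of mRpL4, mRpL3 and mRpL10 are printed first because they show the summit, the start and the sequence words in one view. The summit, the base of highest enrichment in a region, is base 101 of each 201-base sequence, and each sequence runs in the direction of the member's transcription. The positions, on assembly dm6 with letters from the RefSeq sequence of that assembly, were chr2L:16329059-16329259 on the minus strand for mRpL4, chrX:15761108-15761308 on the plus strand for mRpL3 and chr2L:203640-203840 on the plus strand for mRpL10. Capitals mark every match, on either strand, to TATCGATA (the DNA replication-related element, DRE), its inner part ATCGAT, GGTCACAC (the core of the promoter element Motif 1), CAGCTG (an E-box), GAGAG (the GAGA word) and TATAAA (the TATA word). The annotated start of the member was base 128 in mRpL4, base 141 in mRpL3 and base 140 in mRpL10. A full TATCGATA lay close to the start in each of the 3, and a separate ATCGAT lay at or just after the summit.
mRpL4: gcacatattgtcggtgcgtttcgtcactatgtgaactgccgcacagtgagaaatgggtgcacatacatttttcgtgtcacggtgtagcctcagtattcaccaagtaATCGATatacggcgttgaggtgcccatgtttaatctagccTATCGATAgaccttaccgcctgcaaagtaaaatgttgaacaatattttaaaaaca
mRpL3: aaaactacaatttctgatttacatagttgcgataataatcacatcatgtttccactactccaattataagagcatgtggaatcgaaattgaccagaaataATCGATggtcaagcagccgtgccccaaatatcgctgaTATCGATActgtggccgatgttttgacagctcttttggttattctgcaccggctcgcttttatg
mRpL10: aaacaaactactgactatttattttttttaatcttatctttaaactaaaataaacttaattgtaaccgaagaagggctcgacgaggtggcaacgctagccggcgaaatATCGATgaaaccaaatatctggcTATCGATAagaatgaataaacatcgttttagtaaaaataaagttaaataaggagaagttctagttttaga

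The strongest regions that lay nearer to the start of a neighbour were at mRpL17 (chr3L:264336-264536 on the plus strand) and mRpL33 (chrX:4322468-4322668 on the minus strand). They are shown because their summits lay away from the member, beside the start of a gene on the opposite strand, so the member's start is outside the printed stretch. Neither held TATCGATA, and each held ATCGAT within 50 bases of the summit.
mRpL17: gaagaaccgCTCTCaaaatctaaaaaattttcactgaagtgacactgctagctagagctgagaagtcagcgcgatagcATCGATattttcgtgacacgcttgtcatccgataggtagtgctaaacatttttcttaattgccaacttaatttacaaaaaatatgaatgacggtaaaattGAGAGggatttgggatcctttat
mRpL33: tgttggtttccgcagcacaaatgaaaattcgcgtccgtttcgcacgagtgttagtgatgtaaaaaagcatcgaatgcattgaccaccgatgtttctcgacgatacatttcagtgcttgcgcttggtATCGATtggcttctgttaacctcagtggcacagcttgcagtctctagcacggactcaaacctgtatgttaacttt

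Of the remaining regions, those at mRpL11 (chr3R:14511415-14511615 on the plus strand) and mRpS18B (chr2L:20097139-20097339 on the minus strand) were chosen after the sequences were seen, to show CAGCTG near a summit. That of mRpL47 (chr3R:9515889-9516089 on the minus strand) was chosen for its high rank, described further on. The start was base 87 in mRpS18B and base 182 in mRpL47, and outside the stretch in mRpL11. The region of mRpL11 held CAGCTG at 3 places and that of mRpS18B at 1 place beside a TATCGATA. That of mRpL47 held ATCGAT at 2 places on the side of its own start and no CAGCTG.
mRpL11: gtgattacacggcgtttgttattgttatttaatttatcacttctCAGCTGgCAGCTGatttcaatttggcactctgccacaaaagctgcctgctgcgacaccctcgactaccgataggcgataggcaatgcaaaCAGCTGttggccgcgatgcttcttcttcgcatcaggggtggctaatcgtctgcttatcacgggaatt
mRpS18B: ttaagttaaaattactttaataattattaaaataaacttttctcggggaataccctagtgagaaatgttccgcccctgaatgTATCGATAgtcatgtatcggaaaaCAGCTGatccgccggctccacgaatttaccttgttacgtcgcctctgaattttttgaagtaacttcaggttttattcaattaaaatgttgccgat
mRpL47: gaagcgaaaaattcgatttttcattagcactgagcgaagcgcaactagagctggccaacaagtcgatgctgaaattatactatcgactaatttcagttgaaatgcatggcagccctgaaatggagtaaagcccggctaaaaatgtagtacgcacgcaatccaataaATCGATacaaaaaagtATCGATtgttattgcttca

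The binding data were 4 lists of called regions: one for the agreement between the biological replicates (the conservative list), one for the pooled reads, and one for each replicate. They held 2752, 4044, 2803 and 1629 regions in that order. The authors kept regions by the irreproducible discovery rate (IDR), which estimates how often a region at that rank would fail to recur. Each region carries a signal, the authors' own enrichment value, and signals are compared only among regions of the same list. A gene was counted as called where at least 1 of its annotated starts had a summit no more than 1 kb away. Depth is unknown, because these are lists of regions without read numbers.

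Members were called more often than protein-coding genes as a whole in each of the 4 lists. All 4 lists come from the same 2 biological replicates, so they are not independent of each other. In the conservative list 25 of 73 members were called, 34.2%, against 20.6% of all protein-coding genes. Of the 73 members, 11 were called with the own start nearest or tied and 14 with a neighbour's start nearer. Over all 13945 protein-coding genes these counts were 1934 and 932. The excess of members in that list thus lay mostly in regions nearer to a neighbour's start. The pooled list called 30 members, 41.1%, against 27.3% of all protein-coding genes. The replicate 1 list called 23 members, 31.5%, against 21.9%, and the replicate 2 list called 17 members, 23.3%, against 12.7%. In both replicate lists 15 members were called, 20.5%, against 11.2%, and in any of the 4 lists 34 members, 46.6%, against 29.9%. The remaining 39 members were in none of the lists. No chance test of these shares was made, and genes that neighbour each other are not independent.

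**Figure D1:**
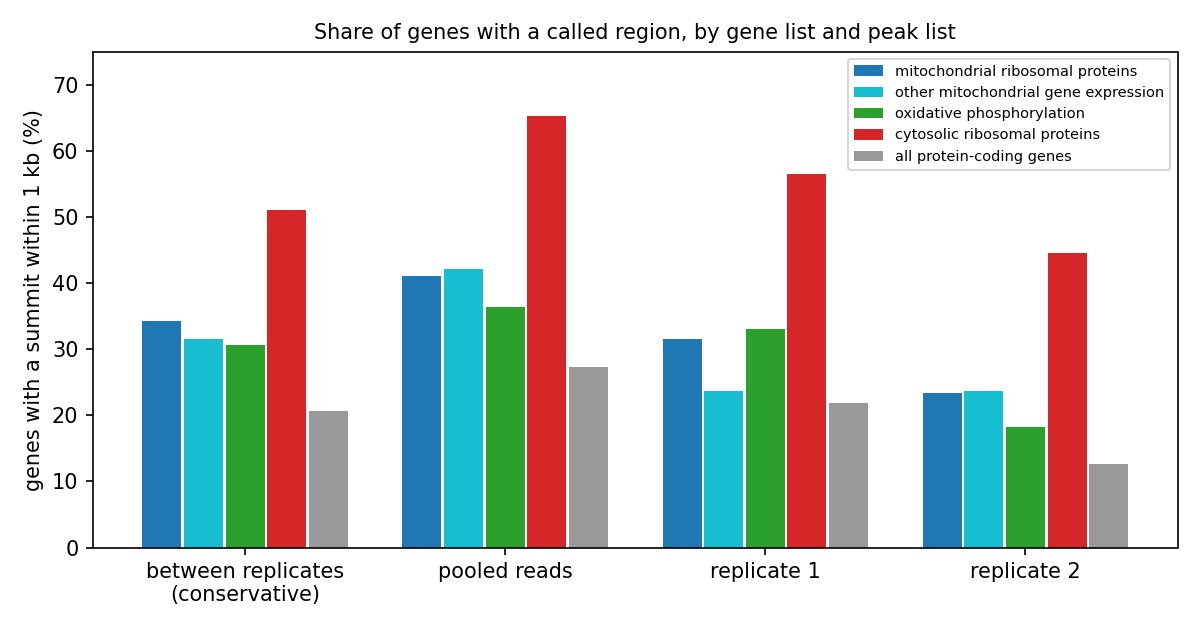
Bars give the percentage of genes with a summit within 1 kb of any start (y axis) in each of the 4 peak lists (x axis), for mitochondrial ribosomal protein genes, 3 related gene lists and all protein-coding genes. The mitochondrial ribosomal protein genes stand at 34.2, 41.1, 31.5 and 23.3%, above all protein-coding genes in each list and below the cytosolic ribosomal protein genes in each list.

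Both subunits had called members, and the difference between their shares was not tested. In the conservative list 17 of 47 large subunit genes (36.2%) and 8 of 26 small subunit genes (30.8%) were called. The small subunit count was 6 in the replicate 1 list alone and 4 in the replicate 2 list alone. Signals were higher among the large subunit genes, with a median of 117.7 (66.07 to 485.8), than among the small subunit genes, with a median of 84.56 (68.09 to 139.6). The 4 strongest member regions were all at large subunit genes. Part of the numbering of these proteins is shared with bacterial ribosomes, where it runs to 36 for the large and 21 for the small subunit. Among members with a number of that series 14 of 42 (33.3%) were called, and among members with a higher number 11 of 31 (35.5%), a grouping chosen after the values were seen.

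By chromosome arm, 7 of 12 members were called on 2L (58.3%, against 19% of all protein-coding genes of that arm) and 6 of 12 on 2R (50%, against 23.6%). On 3L 5 of 17 were called (29.4%, against 19.4%), on 3R 4 of 21 (19%, against 19.6%) and on X 3 of 11 (27.3%, against 22%). The members' shares thus spread more widely than those of the arms, over few members each and untested. The 25 members had 25 distinct regions, so no region served 2 members. Their strongest signals had a median of 116.8, against 113.7 for all called protein-coding genes. The median of the list itself was 102.4, and 15 of the 25 members lay above it. Members were called at a higher share than the background, while the median of their signals lay near that of all called genes.

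Most member regions were shared with another gene. A start of another gene lay within 1 kb of the summit for 24 of 25 called members (96%), against 66.7% of all called protein-coding genes. The member's own start was the nearest, ties included, for 11 of the 25 (44%), against 67.5% of all called protein-coding genes. The count was 7 in the replicate 2 list alone and 8 in the replicate 1 list alone, from 17 and 23 called members. The median distance between summit and own start was 141 bp for called members and 64 bp for all called protein-coding genes. A summit within 100 bp of the own start was found for 44% of called members and for 60.7% of all called protein-coding genes.

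The neighbours were not themselves members. The 24 shared regions had 28 distinct neighbour genes, of which 0 were members. RpL27A, a protein of the cytosolic large subunit, was the 1 neighbour among the cytosolic ribosomal protein genes, and ATPsynD, a subunit of ATP synthase, was the 1 neighbour in the oxidative phosphorylation list. In 20 of 24 cases (83.3%) the nearest protein-coding neighbour lay head to head with the member, with a median of 397 bp between the starts (41 to 793). Among all called protein-coding genes with such a neighbour the share was 87.9% and the median 326 bp. The remaining 4 neighbours lay on the same strand as the member.

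**Figure D2:**
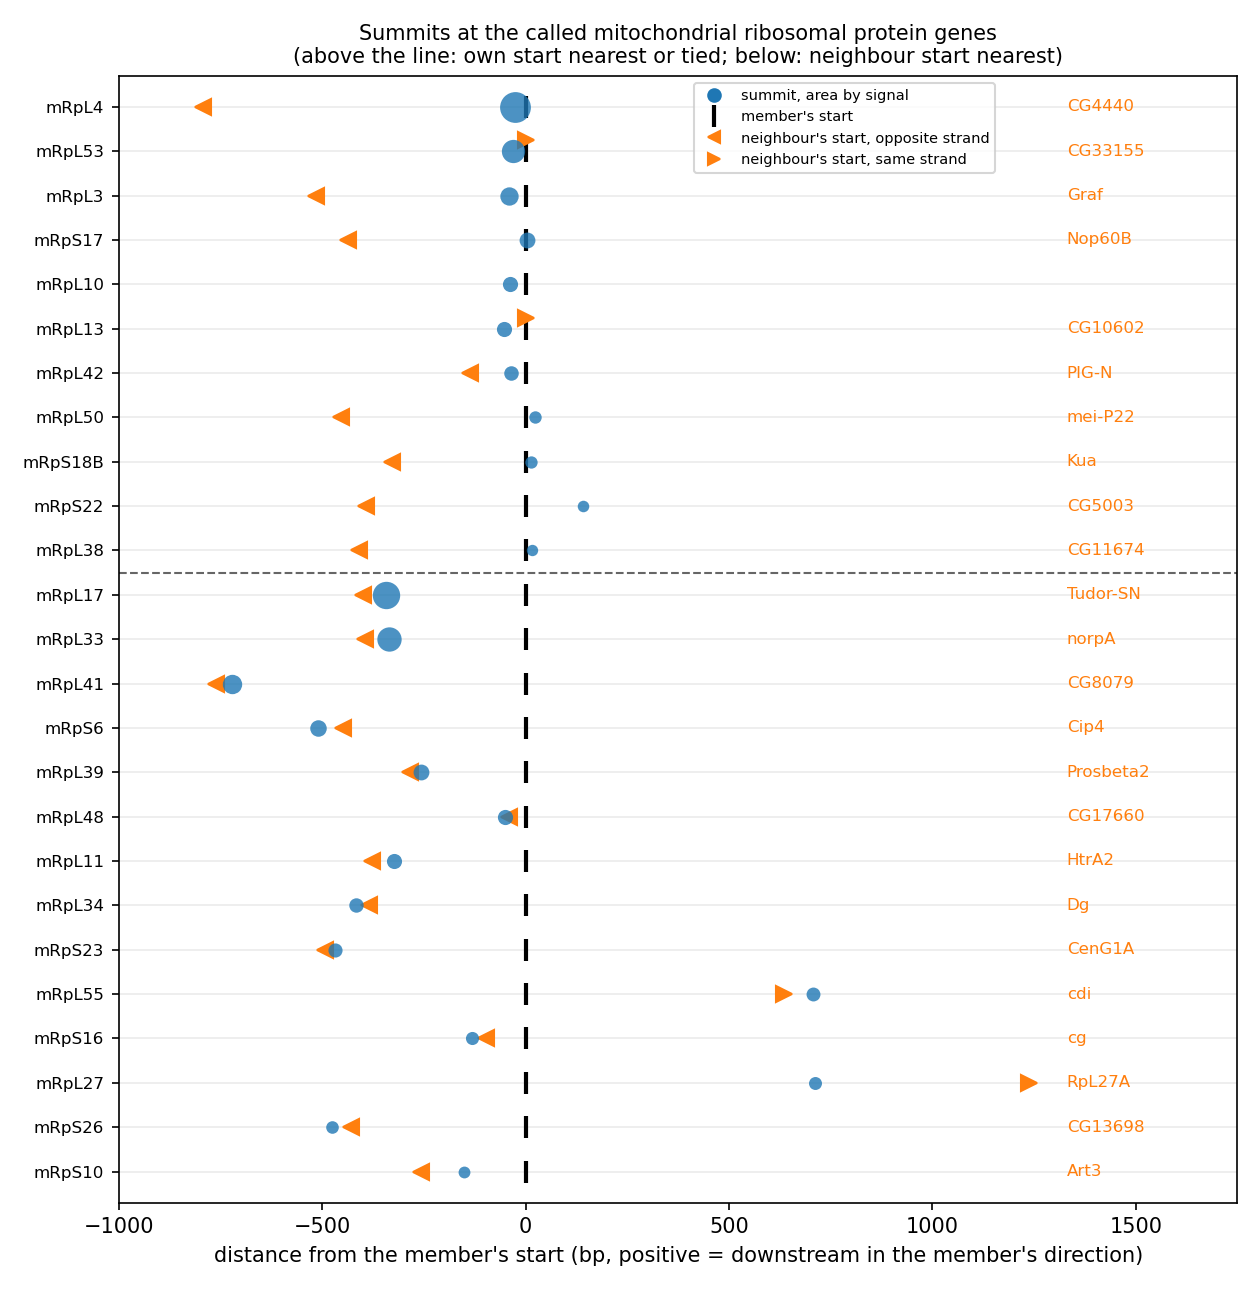
Each row is a called member, with its start at 0 and distance in bp along the x axis in the member's direction. Circles mark summits with area by signal in the conservative list, and triangles mark the start of the nearest neighbour, named at the right. In the upper 11 rows summits sit at the member's start, and in the lower 14 rows mostly at the neighbour's start.

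The 11 members with the nearest start had summits close to it, at a median of 31 bp (4 to 141), 6 upstream and 5 downstream. Their signals had a median of 117.4 (66.07 to 485.8), and 7 lay above the median of the list. In the 10 of these regions with a neighbour, it was mostly farther off, at a median of 433 bp from the summit (31 to 766). It lay within 100 bp in 3 of the 10, and in 2 ties it was exactly as near as the member.

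mRpL4 (FBgn0001995), a large subunit protein whose bacterial counterpart helps to line the exit tunnel of the ribosome, had the strongest region. Its signal was 485.8, rank 36 of 2752, at chr2L:16329070-16329248, with the summit 27 bp upstream of its start, in sequence that the annotation leaves intergenic. In the replicates' own lists it had 303.2 in replicate 1 and 172 in replicate 2. Its neighbour CG4440 lay 766 bp from the summit. The region was thus high in both replicates and placed by both at the start of mRpL4.

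mRpL3 (FBgn0030686), the counterpart of a bacterial protein near the peptidyl transferase centre, had a signal of 172.1, rank 496. The summit lay 40 bp upstream of its start and 475 bp from Graf. The replicates gave 111.9 in replicate 1 and 55.76 in replicate 2. mRpL10 (FBgn0031231), which belongs to the stalk that recruits translation factors, was the only member called in the conservative list with no other gene's start within 1 kb of its summit. In the pooled list mRpL45, with a summit 224 bp from its start, was a further one. The signal of mRpL10 was 117.7, rank 1072, with the summit 39 bp upstream of its start, and the replicates gave 73.22 in replicate 1 and 51.7 in replicate 2.

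A pair of members had the same annotated start as a gene on the same strand and were counted as ties. mRpL53 (FBgn0050481), a large subunit protein, had a signal of 276.9, rank 154, with the summit 31 bp upstream of a start it shares with CG33155. The replicates gave it 138.1 in replicate 1 and 149.9 in replicate 2, and its summit also lay in an intron of AGO1, the Argonaute protein of the microRNA pathway. mRpL13, the other tie, had a signal of 117.4 with the summit 52 bp upstream of the start it shares with CG10602. It was in the replicate 2 list at 83.08, and its strongest ranked region in replicate 1 had 38.53. The transcripts of such pairs cannot be told apart by the place of a summit.

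mRpS17 (FBgn0034986), a small subunit protein, had its summit 4 bp downstream of its start, in its own 5′ UTR, at a signal of 128.4. A second region of signal 117.5 lay 21 bp from the start of its head to head neighbour Nop60B, a pseudouridine synthase of small nucleolar particles. The pair of starts therefore had a summit each. The replicates gave mRpS17 94.44 in replicate 1 and 42.2 in replicate 2.

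The other 5 members of this group had low to middling signals. mRpL42 had 108 (rank 1263), with the summit 37 bp upstream of its start and 99 bp from PIG-N, an enzyme of glycolipid anchor synthesis. mRpL50 had 78.94, mRpS18B 77.37, mRpS22 68.09 and mRpL38 66.07 as signals, all below the median of the list. Their summits lay 22, 14, 141 and 16 bp downstream of the own start, in the own 5′ UTR or, for mRpS22, in its coding exon. mRpS18B, mRpS22 and mRpL38 were in neither replicate's list.

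In the 14 members nearer to a neighbour, the summit mostly lay at the neighbour's start. It was a median of 50 bp (9 to 526) from the neighbour's start and 380 bp (50 to 722) from the member's own. The summit lay within 100 bp of the neighbour's start in 12 of 14 cases, and 12 of the 14 neighbours were head to head with the member. Their signals had a median of 111.7 (71.63 to 383.4), near that of the other 11.

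mRpL17 (FBgn0035122) had the second strongest member region, with a signal of 383.4, rank 77, at chr3L:264345-264514. The summit lay 343 bp upstream of mRpL17 and 56 bp from Tudor-SN, a nuclease with a Tudor domain. The replicates gave 252.4 in replicate 1 and 141.8 in replicate 2. mRpL33 (FBgn0040907) had a signal of 302.7, rank 132, at chrX:4322500-4322646, 337 bp upstream of its start. The neighbour norpA, the phospholipase C of the visual cascade, lay 58 bp from that summit, and the replicates gave 192.1 in replicate 1 and 106.7 in replicate 2. Both regions were high in both replicates and sat at the start of the neighbour.

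mRpL41 (FBgn0034001) had a signal of 192.4, rank 370, at the greatest distance from a member among the 25, 722 bp upstream, and 40 bp from CG8079. mRpS6 (FBgn0035534) had 139.6, rank 768, 63 bp from Cip4, an adaptor of actin and membrane dynamics. mRpL39 had 128.2, 29 bp from Prosbeta2, a catalytic subunit of the proteasome. These 3 were in both replicate lists. Replicate 1 gave signals of 127.8, 90.46 and 76.04 to the 3 in that order, and replicate 2 gave 66.01, 52.46 and 44.55.

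Among head to head pairs of the conservative list, the closest starts were those of mRpL48 and CG17660, 41 bp apart. The summit lay 9 bp from CG17660 and 50 bp upstream of mRpL48, at a signal of 118.1, and the replicate 2 list placed it nearer to mRpL48. The summit was 15 bp downstream of mRpL48 in replicate 2 and 49 bp upstream in replicate 1, so the assignment differed between the replicates. mRpL11, a protein of the region where translation factors bind, had 116.8 with the summit in the 5′ UTR of HtrA2, a mitochondrial serine protease. mRpL34 had 106.5 with the summit in the 5′ UTR of Dg, the receptor dystroglycan. mRpS23 had 102.2, 23 bp from CenG1A, a GTPase-activating protein. All 4 were in both replicate lists.

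mRpL55 had 2 regions and a neighbour on either side. The stronger, of signal 98.97, lay 706 bp downstream of its start and 71 bp from cdi, a protein kinase. The weaker, of signal 78.97, lay 66 bp upstream of mRpL55 and 29 bp from ATPsynD. Had the nearer summit been taken in place of the stronger, the neighbour's start would still have been the closer.

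The region of mRpL27 was the farthest from any start. Its summit, of signal 86.29, lay in its own 3′ UTR, 712 bp downstream of its start and 526 bp from RpL27A. mRpS16 had 87.85, 34 bp from cg, a zinc finger protein. mRpS26 had 81.27, 45 bp from CG13698. mRpS10 had 71.63 and was the only member apart from mRpL27 in this group whose neighbour, the arginine methyltransferase Art3, lay over 100 bp away, at 105 bp. mRpS10 was in neither replicate list, mRpS16 in that of replicate 2, and mRpL27 and mRpS26 in that of replicate 1.

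The surroundings of the members differ from those of other genes before any binding is considered. A start of another gene lay within 1 kb of a start of the member for 60 of 73 members (82.2%), against 48.2% of all protein-coding genes. Of the members with such a neighbour 24 of 60 were called (40%), against 29.7% of protein-coding genes with one. Of the 13 members without one, 1 was called (7.69%), against 12% of protein-coding genes without one. The share of genes called was thus higher with a neighbour in both sets, with only 1 called member on the side without one. A summit at a neighbour's start within 1 kb also counts for the gene itself, so the counting rule favours genes with a neighbour. The part of the neighbourhood in the higher share of members was not tested. Among genes with a neighbour, the shares in the other lists were 46.7% of members against 38.8% (pooled), 36.7% against 31.5% (replicate 1) and 26.7% against 18.6% (replicate 2). Among genes without one, they were 15.4% of members against 16.6% (pooled), 7.69% against 12.9% (replicate 1) and 7.69% against 7.29% (replicate 2).

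**Figure D3:**
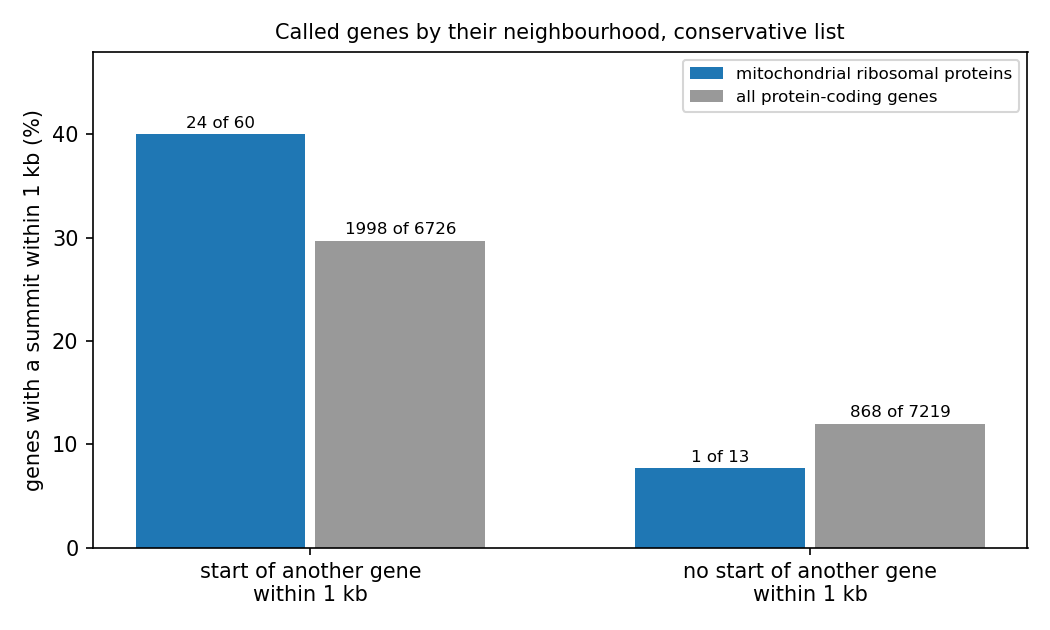
Bars give the percentage of genes called in the conservative list (y axis) for genes with and without a start of another gene within 1 kb of their own (x axis), for mitochondrial ribosomal protein genes and all protein-coding genes, with counts above. Both sets have the higher share where a neighbour is present, 40 and 29.7%.

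The replicates called different numbers of members. Of the 25 members of the conservative list 15 were in both replicate lists, 12 of the large subunit and 3 of the small. For mRpL55 the replicates had different regions, 665 bp downstream of its start in replicate 1 and 107 bp upstream in replicate 2. A further 4 were in replicate 1 only (mRpL27, mRpL42, mRpL50 and mRpS26), 2 in replicate 2 only (mRpL13 and mRpS16), and 4 in neither (mRpL38, mRpS10, mRpS18B and mRpS22). The members in both lists made up 65.2% of those in replicate 1 and 88.2% of those in replicate 2. For all protein-coding genes these shares were 51% and 87.7%. The replicate 1 list is the longer of these lists.

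Below the threshold, ranked lists of all candidate regions were searched for the strongest region within 1 kb of each member. Such a region was found for 72 of 73 members in replicate 1 (98.6%), against 90.5% of all protein-coding genes. Its median signal was 34.48, against 26.46 over all protein-coding genes with one. In replicate 2 it was found for 70 members (95.9%), against 90.8%, with a median of 28.44, against 22.48. The strongest region was picked separately in each replicate, so the values of a gene can come from different regions. For mRpS31 the summit lay 615 bp upstream of its start in replicate 1 and 815 bp downstream in replicate 2. Over the 70 members with both values the Spearman correlation between replicates was 0.67, against 0.68 over 11871 protein-coding genes. It was 0.61 over the 25 called members. Over 45 members outside the conservative list it was 0.26, against 0.37 over 9010 protein-coding genes outside it. These values run across genes of the same 2 libraries and are descriptions, since genes are not independent replicates.

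**Figure D4:**
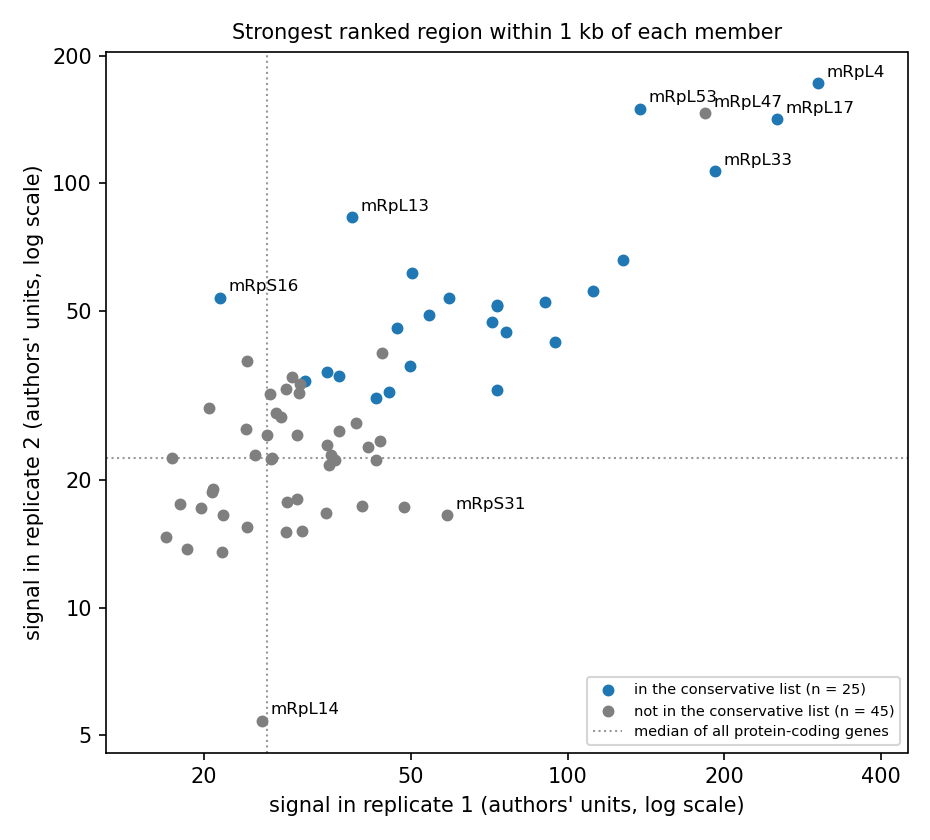
Points are 70 mitochondrial ribosomal protein genes, placed by the signal of their strongest ranked region in replicate 1 (x axis, log scale) and replicate 2 (y axis, log scale) in the authors' units, with dotted lines at the medians of all protein-coding genes. The region was picked separately in each replicate and can differ between them. mRpL4 is highest in both replicates, and mRpL47 lies among the strongest though it is outside the conservative list.

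mRpL47 (FBgn0014023) stood out among the members outside the lists. Its ranked region, with a summit 81 bp upstream of its start at chr3R:9515899-9516032, had a signal of 331.7 and stood among the strongest of 140257 candidates in the comparison of replicates. Replicate 1 gave it 184 (rank 143 in its ranked list) and replicate 2 gave it 146.6 (rank 81), and its −log10 IDR was past the limit of 2 (an IDR of 0.01) in all 4 ranked lists. It was nonetheless in none of the 4 called lists. Of 2894 ranked regions past the limit in the comparison of replicates, 142 were missing from the called list in this way, and the sources used here do not say what removed them. The summit lay 18 bp from the start of CG8176, head to head with mRpL47. Counted in, it would bring the called members to 26.

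The other members outside the conservative list had weaker regions. Of the 48, 46 had a ranked region (95.8%), against 87.1% of protein-coding genes outside that list. Of the 46, 21 had a −log10 IDR of at least 1, 10 of at least 1.5 and 1, mRpL47, of at least 2. The same counts are not given for other protein-coding genes, so these cannot be set against a background. mRpS5 and mRpS7 had no ranked region in the comparison of replicates. In the pooled list alone 5 further members were called: mRpL2 (67.44), mRpL22 (65.45), mRpL45 (64.24), mRpL18 (63.58) and mRpS25 (56.72), all with signals below that list's median of 83.99. In the replicate 1 list alone 4 were called: mRpS31 (58.6), mRpS18C (48.58), mRpL44 (40.21) and mRpL15 (12.46), all with signals below that list's median of 62.34. The replicate 2 list held no member that the conservative list lacked. Apart from mRpL47, which was past the limit, a member outside a list was not detectable at these thresholds, which is not the same as unbound.

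The words marked in the printed sequences were counted within 50 bp of each summit. TATCGATA was found in 4 of 25 member regions (16%) and in 12.6% of all 2747 regions on the arms. The 4 were mRpL3, mRpL10, mRpL39 and mRpS18B, while in mRpL4 the word lay partly beyond the 50 bp. Its inner part ATCGAT, which every TATCGATA contains and which was added after the sequences were seen, was found in 10 member regions (40%) and in 26.1% of all regions. CAGCTG was found in 4 member regions (16%; mRpL11, mRpS17, mRpS18B and mRpS22) and in 7.24% of all regions. GGTCACAC was found in 2 member regions (8%; mRpL34 and mRpL48) and in 4.51% of all regions. GAGAG and TATAAA were in 0 of 25 member regions, and in 12.8% and 7.03% of all regions. For 0 of 25 the exact 95% interval reaches 13.7%, a range that includes the share of either word in all regions. These shares rest on few regions and moved with the list: GGTCACAC was in 17.6% of member regions of the replicate 2 list and 13% of those of the replicate 1 list, and GAGAG in 5.88% and 8.7% in the same order. Within 100 bp of the summit CAGCTG was in 36% of the 25 regions, GGTCACAC in 16%, and GAGAG and TATAAA in 8% each. For the replicate lists and this wider window no share of all regions is given. These values therefore cannot be set against the shares of all regions above.

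Promoters of all members, called or not, were searched for the same words from 250 bp upstream to 50 bp downstream of the 5′ end. CAGCTG was found in 40 of 73 member promoters, 54.8% (exact 95% interval 42.7 to 66.5), against 17.7% of all 13945 promoters of the same length. It was held by 12 of 25 called members (48%) and by 28 of 48 uncalled members (58.3%). Large subunit promoters held it in 57.4% of cases and small subunit promoters in 50%. Its 45 matches centred near the 5′ end, at a median of 4.5 bp downstream, against 48.5 bp upstream over all promoters. The word was thus common in member promoters whether or not a region was called there.

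TATCGATA was found in 20.5% of member promoters (9.36% of all promoters), in 7 of 25 called members and 8 of 48 uncalled members. GGTCACAC was found in 11% (7.7% of all promoters), in 5 of 25 called and 3 of 48 uncalled members. GAGAG was rarer in member promoters, 16.4% against 29.7%, as it was in the related gene lists described further on. TATAAA was found in 46.6% against 45.8%, in 7 of 25 called and 27 of 48 uncalled members. The intervals of called and uncalled members overlapped for every word, which does not show that their shares are alike. The widest gap was for TATAAA, 28% (12.1 to 49.4) of called against 56.2% (41.2 to 70.5) of uncalled members. No difference between called and uncalled members was tested. The matches are descriptions of letters, not of binding sites. Head to head genes share promoter sequence, so part of these matches also belongs to the neighbour's promoter.

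**Figure D5:**
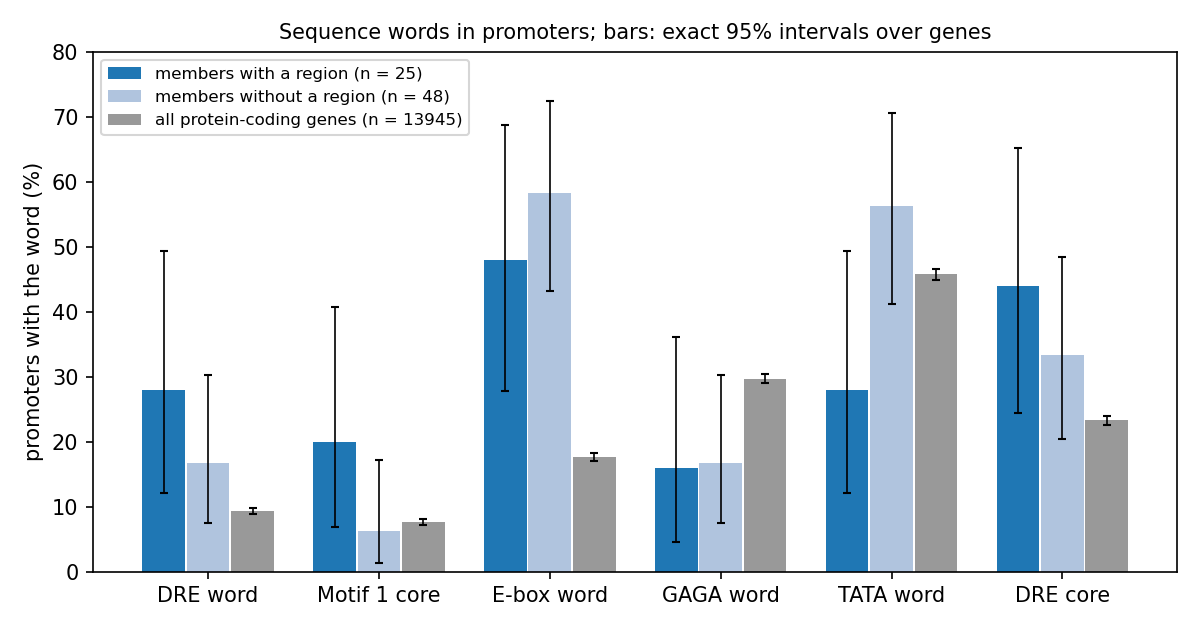
Bars give the percentage of promoters (y axis) that hold each sequence word (x axis) among members with a region in the conservative list, members without one and all protein-coding genes, with exact 95% intervals that cover counting error only. The E-box word is found in 48% and 58.3% of member promoters and 17.7% of all promoters.

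Other genes of mitochondrial gene expression were called at a share like that of the members in the conservative list. In the replicate 1 list their share was 23.7%, against 31.5% of members and 21.9% of all protein-coding genes. It was 23.7% in the replicate 2 list, against 23.3% and 12.7%, and 42.1% in the pooled list, against 41.1% and 27.3%. Of 38 genes for mitochondrial aminoacyl-tRNA synthetases, translation factors, transcription and genome maintenance, 12 were called in the conservative list (31.6%), against 20.6% of all protein-coding genes. Their own start was the nearest in 9 of the 12, and 8 shared the region with another gene. The strongest were mRF1, a release factor, with a signal of 282.7, mEFTs, an elongation factor, with 196.8, bsf, an RNA-binding protein, with 195.1, mtSSB, which binds single-stranded DNA, with 173.9, and scu, a dehydrogenase of the mitochondrial matrix, with 156. CAGCTG was in 47.4% of the promoters of this list.

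Genes for oxidative phosphorylation, the process that needs the products of these ribosomes, were called in 27 of 88 cases (30.7%), with the own start nearest in 59.3% and a shared region in 81.5% of the called genes. The strongest were COX6B (414.1), UQCR-14 (345.8), ATPsynF (319.3), ATPsynCF6 (206.1) and ND-B14.5B (173.4), given as signals. Cytosolic ribosomal protein genes were called in 47 of 92 cases (51.1%), with the own start nearest in 78.7% and a shared region in 80.9% of the called genes. The strongest were RpL32 (592.9), RpS2 (516.4), RpL7 (400.8), RpS29 (328.4) and RpS30 (323.5), again as signals. A start of another gene lay within 1 kb of a start in 77.2% of the cytosolic list and 64.8% of the oxidative phosphorylation list. Of the genes with such a neighbour 54.9% and 40.4% were called in the conservative list, in that order, against 40% of members. Of those without one 38.1% and 12.9% were called, against 7.69% of members. The shares of these lists were not tested against those of the members. CAGCTG was in 23.9% of oxidative phosphorylation promoters and 9.78% of cytosolic ribosomal protein promoters. GAGAG was in 18.4% of promoters of the mitochondrial gene expression list, 22.7% of oxidative phosphorylation promoters and 16.3% of cytosolic ribosomal protein promoters. In the same order TATCGATA was in 26.3%, 10.2% and 30.4%, and GGTCACAC in 15.8%, 18.2% and 16.3%.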

How the data were processed

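Per the labels, ChIP-seq was done on 2 biological replicates and the build is dm6. No aligner or caller is named (not given in the sources used here). 4 lists of called and 4 of ranked regions were deposited by the authors. The authors gave a signal per region and, in the ranked lists, the −log10 of the global IDR as deposited by the authors. A control named in the deposited records was not analysed here. No read counts were used, so the depth per replicate is unknown and intervals cover counting error only.

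Regions were matched to genes of Ensembl release 115, whose coordinates fit dm6: all 74 start codons of the members read ATG in the RefSeq sequence. A gene was called when a summit (start + peak offset + 1) lay within 1 kb of any start. The strongest such summit was used, ties in distance counted as own, and transposable elements were left out as neighbours. Intervals are exact binomial. Python 3.11.15, numpy 2.4.6, scipy 1.17.1 and matplotlib 3.10.9 were used, and the matching was tested on simulated data. Every called member was named, and of other lists up to 5 by signal. Members, gene lists and words were chosen with earlier results of these data known. With 1 group there are no p-values. Alternatives were the other lists, leaving out a replicate, other windows and a signal limit. The replicates are labelled biological, with nothing more on separate collections.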

Additional observations from a re-analysis of the deposited data

How the results depend on the processing

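Of 75 alternatives to 13 results, 69 stayed within 1.5 times the main count or within the interval of the main share. For the word shares these intervals rest on 25 regions and are wide, so staying within them says little about stability. CAGCTG at 36% within 100 bp of the summit still lay within the interval of its main share of 16% (4.54 to 36.1%). With 1 replicate left out, the members whose own start was nearest numbered 7 to 8 in place of 11, and called small subunit members 4 to 6 in place of 8. With only regions above the list's median signal, 15 members were called in place of 25, 7 with the own start nearest, 14 with a shared region and 2 of the small subunit. That limit keeps fewer regions by construction. The alternative called lists and windows of 500 bp and 2 kb gave 17 to 30 called members. Counting ranked regions past the IDR limit, chosen after seeing the data, gave 26. No paired analysis was possible because there is 1 group. Depth is unknown, so a member outside a list cannot be called unbound, and with 25 regions a word present in few of them can go unseen.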
